A study of Mus musculus with 4 samples.

Results

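The C-type lectin receptor genes of mouse chromosome 6 were examined in open-chromatin maps of T-helper 17 (Th17) cells. All protein-coding genes of GENCODE release M21 on chromosome 6 whose symbol starts with Klr or Clec were taken, each with 10 kb on either side of its body. This gave 48 genes of 21938 protein-coding genes, and 78 open regions of 101015 after the regions of all replicates were merged where they overlapped. Of these 48 genes, 34 lie in the natural killer gene complex (chr6:128599227-131257362 in mm10, windows included) and 9 in the DCIR cluster (chr6:122911848-123299870), while Klrg2, Clec2l, Clec5a, Clec4f and Klrg1 stand apart from both. The choice used names and positions and no measured value.

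The assay was ATAC-seq, which uses a transposase to cut and tag DNA where chromatin is accessible, on primary Th17 cells of strain C57BL/6NJ. There is 1 group with 4 biological replicates, no treatment or genotype contrast and no control cell type. The labels give age as unknown and sex as not collected, point to a protocol for differentiating CD4+ T cells, and list 1 donor identifier for all 4, so the spread between replicates may not cover differences between animals. Each replicate has its own list of open regions, and the lists hold no read counts, so depth is unknown.

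Natural killer (NK) cells read the surface of other cells with paired activating and inhibitory lectin-like receptors. Ly49 receptors and the CD94/NKG2 pairs recognise class I histocompatibility molecules, whereas NKR-P1 receptors recognise Clr proteins, which are encoded by Clec2 genes interspersed among the receptor genes. Myeloid lectins of the Dectin-1 and Dectin-2 groups bind fungal glycans, cell debris or other ligands, and several of these receptors also occur on activated or memory T cells.

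The members had 61, 68, 67 and 66 open regions in replicates 1 to 4, or 65.5 ± 3.11 (SD, n = 4), in lists of 83904, 85127, 85293 and 84137 regions. After merging, 53 of the 78 regions were found in all 4 replicates and are called shared below, 6 in 3, 7 in 2 and 12 in 1. Deposited region names carry the library tag KS134 for the first 2 replicates and KS136 for the last 2. Just 1 member region was found in both KS134 replicates and no other, and 4 in both KS136 replicates and no other. What the tag stands for is not given in the sources used here. Signal below is the deposited enrichment of a region over background. Its percentile is the share of the same replicate's list at or below it, used because signal was not scaled between replicates.

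Openness of a promoter meant that every replicate's list had a region with some part at most 1 kb from an annotated start site. Distances below are from the nearest annotated start site, which can lie inside the gene. By that count 9 of the 48 member promoters were open, against 64.1% of all protein-coding genes. The 9 were Klrg2, Clec2l, Clec2h, Klrb1b, Klrb1f, Clec2d, Clec12a, Klre1 and Klra2. Another 6 promoters had a region in some replicates: Klrb1c in replicates 2, 3 and 4, Klrd1 in 1, 2 and 3, Clec2i in 1 and 3, and Klrg1, Clec4e and Klrc1 in replicate 4. At Klrb1c these were separate regions, at 11 bp in replicates 3 and 4 and at -721 bp in replicates 2 and 3. At Clec2i and Klrc1 the region was the edge of a strong shared region with its summit beyond 1 kb, which reached the promoter in those replicates alone. With merged shared regions in place of each replicate's own, both counted as open and the number was 11, beside 64.4% of all genes. The other 33 had none in any replicate. In 1 replicate at a time, 11, 11, 12 and 13 member promoters had a region, so the replicates lay close together. Most members have promoters poor in CpG dinucleotides: when all genes were divided into 5 classes of equal size by observed over expected CpG, 28 fell in the poorest class and 18 in the next. In the poorest class 4 of the 28 members were open beside 13.8% of all genes there, and in the next 3 of 18 beside 39.1%. Members of the poorest class were thus open about as often as that class as a whole. The remaining pair, Klrg2 and Clec2l, lie in the 2 richest classes and were both open.

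**Figure D1:**
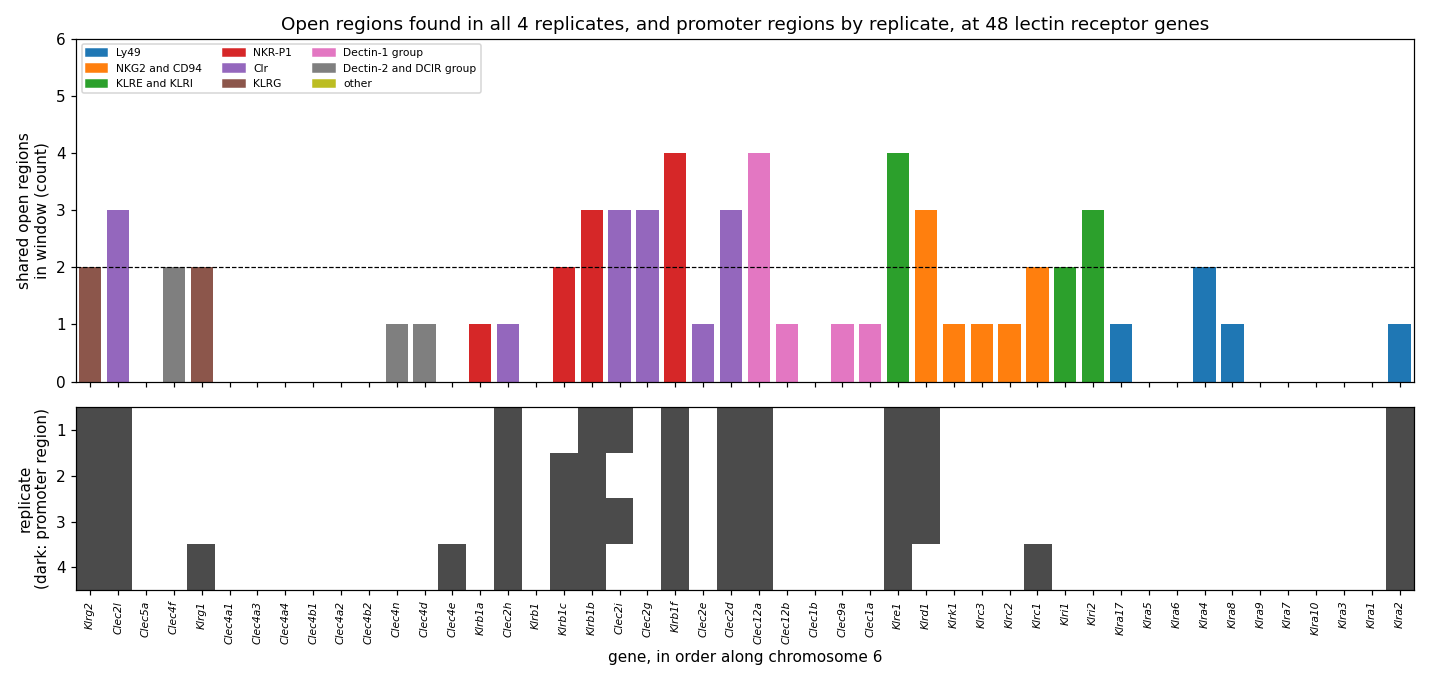
The 48 genes in order along chromosome 6, with the number of shared open regions in each window (bars, coloured by family; the dashed line is the median of 2 over all protein-coding genes) and, beneath, the replicates with a region within 1 kb of a start site (dark cells). Bars reach 4 at Klrb1f, Clec12a and Klre1 and are at 0 for most Ly49 and DCIR cluster genes.

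Windows overlap in the clusters, so 1 region can count for neighbours. At least 1 shared region lay in 31 of 48 member windows, against 76.9% of all protein-coding genes and 78.0% of genes whose windows span the same lengths. A further 4 members had regions in some replicates only, and 13 had none in any replicate, beside 20.2% of all genes. The median was 1 shared region per member window and 2 over all genes. Per 100 kb of window the median was also lower in the members, at 2.90 against 5.34 over all protein-coding genes. Compared with whole chromosomes, which include sequence far from genes, the merged member windows held 3.26 shared regions per 100 kb, against 2.54 on chromosome 6 and 2.52 genome-wide. With 50 kb on each side in place of 10 kb, 41 of 48 members had a shared region, beside 83.0% of all genes, so the lower count of members depended on the width of the window. The median stayed lower at that width, with 3.5 shared regions per member window and 7 over all genes. Closed members and members with several regions therefore stood side by side, and the families below differ in which of these they hold. With 1 bulk population per replicate, a site open in few cells and a site less open in every cell cannot be told apart.

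Clr genes encode the ligands of NKR-P1 receptors. All 6 (Clec2d, Clec2e, Clec2g, Clec2h, Clec2i and Clec2l, the last a distant relative outside the complex) had a shared region, 14 different ones in all, and 3 of the 6 promoters were open. Clec2d, which encodes Clr-b, the ligand of the inhibitory receptor of Klrb1b, had the strongest member promoter. Its region (chr6:129180088-129181244, summit 61 bp after the start) had signals of 16.9, 15.3, 13.4 and 14.2 in replicates 1 to 4, at percentiles 98.0, 94.0, 91.7 and 93.5. No replicate placed it lower than 91.7. The strongest Clr region lay in an intron of Clec2i, which encodes Clr-g, 1329 bp after the start (chr6:128888471-128889489). Signals there were 17.0, 17.7, 16.7 and 15.6, at a mean percentile of 98.2 ± 0.834 (SD, n = 4), and the edge of this same region came within 1 kb of the start in replicates 1 and 3. The Clec2i window held no separate promoter region.

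Clec2g, its close paralogue, had 3, 5, 5 and 5 regions in its window by replicate, and no promoter region in any. Its intronic region 1536 bp after an internal start had signals of 11.1, 13.9, 12.3 and 12.7. Clec2d and Clec2i had 3 regions in every replicate, and Clec2l had 3, 3, 3 and 4. The Clec2l promoter region had signals of 7.16, 5.61, 6.08 and 4.43, at percentiles from 32.3 to 57.3, well under that of Clec2d. The Clec2h promoter region, at -26 bp, had signals of 12.1, 10.9, 7.01 and 6.65, so both KS134 replicates lay above both KS136 replicates there. This order was not particular to Clec2h: the promoter regions of Clec2d, Klrb1b, Klrg2, Klre1, Klra2 and Clec12a had it too. So did the strongest member region, in Klra4, and the Klri2 region at -1236 bp. The Klrb1f promoter region and the Klri2 region at -7039 bp had the reverse order, and the Clec2l promoter region had neither. Signal was not scaled between replicates, and whether the tag plays a part in these differences was not tested. Clec2e, whose product is Clr-a, had 1 shared region, in an intron, at a mean percentile of 49.7 ± 12.6 (SD, n = 4).

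NKR-P1 genes encode the receptors for those ligands. Of 5 members, 4 had shared regions (10 different ones), and Klrb1 had no region in any replicate. Klrb1f, an NKR-P1 receptor gene whose product binds Clr-g, had 4 regions in each replicate and an open promoter. Its promoter region had signals of 4.03, 4.55, 5.87 and 5.38, below the 11.0, 9.58, 8.70 and 9.96 of the intronic region 2631 bp after an internal start. The Klrb1b promoter region, at -753 bp, reached 13.03, 13.3, 11.7 and 12.4, with percentiles between 85.1 and 87.9. That made Klrb1b the receptor gene with the strongest promoter region, beside the Clec2d promoter of its ligand. Klrb1c, which encodes the NK cell marker NK1.1, had 2 shared regions. The one in its own intron, 4923 bp after an internal start, had signals of 10.1, 9.25, 7.65 and 11.0. Klrb1a had 1, at the far end of its window.

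Summit sequences are given for the strongest region of all and for the stronger promoters open in all replicates, so that they can be read beside the signals. At most 6 were taken, in order of mean percentile, which left out the promoters of Klrg2, Clec2l, Klrb1f and Clec12a. Each sequence is the longest mm10 stretch within 100 bp of the summit that holds no untranslated exon, on the strand of the gene. Capitals mark matches to the searched strings described further on. The Clec2d stretch, mostly coding sequence, is not printed. Klra4, in an intron and part of a coding exon, covers chr6:130062937-130063137. Klrb1b covers chr6:128826984-128827184, Klre1 chr6:129583235-129583343, Clec2h chr6:128662259-128662384 and Klra2 chr6:131247363-131247463.
Klra4, minus strand: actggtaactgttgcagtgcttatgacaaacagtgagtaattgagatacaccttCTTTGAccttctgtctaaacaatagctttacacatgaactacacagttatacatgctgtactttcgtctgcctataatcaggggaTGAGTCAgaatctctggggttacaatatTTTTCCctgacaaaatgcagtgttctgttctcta
Klrb1b, minus strand: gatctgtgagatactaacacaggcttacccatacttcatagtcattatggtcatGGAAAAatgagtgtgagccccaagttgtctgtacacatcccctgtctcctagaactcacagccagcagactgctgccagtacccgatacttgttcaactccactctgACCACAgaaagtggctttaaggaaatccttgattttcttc
Klre1, plus strand: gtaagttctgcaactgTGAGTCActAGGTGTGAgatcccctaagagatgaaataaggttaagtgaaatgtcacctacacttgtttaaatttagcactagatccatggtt
Clec2h, plus strand: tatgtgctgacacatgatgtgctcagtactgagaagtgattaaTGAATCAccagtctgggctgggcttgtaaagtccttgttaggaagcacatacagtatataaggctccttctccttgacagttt
Klra2, minus strand: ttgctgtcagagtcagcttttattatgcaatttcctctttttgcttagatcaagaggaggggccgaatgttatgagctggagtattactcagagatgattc

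In the Klra4 stretch the capitals are a TCF string (CTTTGA), an AP-1 string (TGAGTCA) and an NFAT string read on the other strand (TTTTCC). Klrb1b holds an NFAT string (GGAAAA) and a RUNX string on the other strand (ACCACA). Klre1 holds an AP-1 string 2 bases before the T-box string AGGTGTGA, and the printed Clec2h stretch holds TGAATCA, also of the AP-1 form. The printed Klra2 stretch holds none of the strings.

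Ly49 genes (Klra symbols) encode receptors for class I histocompatibility molecules, and few of them were open in these cells. Of 11 genes, 4 had a shared region (Klra4, Klra8, Klra17 and Klra2), 6 had no region in any replicate, and Klra7 had regions in replicates 1 and 3 only. Klra4, which encodes the activating receptor Ly49D, held the strongest region of all 48 genes, in 873 bp around its exon 3 (chr6:130062626-130063498), 4234 bp after the start. Its signals were 22.6, 23.3, 20.9 and 20.9, or 21.9 ± 1.22 (SD, n = 4), which ranked 22, 20, 29 and 34 in the 4 lists. By mean percentile it took place 21 among the 68696 shared regions of the genome. The summits of the replicates lay within 3 bp of each other. The Klra4 promoter nevertheless had no region in any replicate, and the only other region in the window was at -3576 bp. That upstream region (chr6:130070289-130071149) had signals of 13.7, 14.9, 10.5 and 12.7, the lowest in replicate 3.

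Klra8, which encodes Ly49H, had 1 shared region at -6625 bp with signals of 7.06, 9.10, 11.1 and 8.21. Klra2, which encodes Ly49B and sits away from the other Ly49 genes at the far end of the complex, was the single family member with an open promoter. Its promoter region (chr6:131246988-131247496) had signals of 8.79, 9.40, 7.14 and 8.64, at percentiles between 60.1 and 70.4. Klra17, which encodes Ly49Q, had 1 shared region inside the gene, at a mean percentile of 77.8 ± 2.49 (SD, n = 4). Klra5, Klra6, Klra9, Klra10, Klra3 and Klra1 had nothing in their windows. The longest stretches of the complex without any region were 475.897 kb ending at the Klra2 promoter region and 458.436 kb that holds Klra3 and Klra1, and one of 127.904 kb holds Klra5 and part of Klra17.

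Ly49 genes arose by duplication, so each shared region was compared by sequence with the rest of the NK complex. This comparison, and the limits used in it, were chosen after the values above had been seen. The region upstream of Klra4 has 5 close copies, with at least 85% identity over at least 95% of its length, each near another Ly49 gene or pseudogene. Shared regions covered 3 of them. The 81 bp around the Klra4 summit and its counterparts are printed because they show how little sequence separates copies with and without a region. All are on the minus strand of mm10, and capitals mark bases that differ from the Klra4 copy. The copies near Klra11-ps, Klra8 and Klra14-ps also lack 3 bases, which the capitals do not show. In the order printed, the stretches are chr6:130070807-130070887, chr6:129997610-129997690, chr6:130136585-130136662, chr6:130311961-130312041, chr6:130102897-130102974 and chr6:130166392-130166469.
Klra4, in all replicates: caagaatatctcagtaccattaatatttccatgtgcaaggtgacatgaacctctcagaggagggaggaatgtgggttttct
Klra6 side, in all replicates: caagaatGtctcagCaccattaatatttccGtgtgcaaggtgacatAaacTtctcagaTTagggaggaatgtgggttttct
Klra8, in all replicates: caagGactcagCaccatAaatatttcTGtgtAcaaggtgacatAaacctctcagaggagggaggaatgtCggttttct
Klra13-ps, in all replicates: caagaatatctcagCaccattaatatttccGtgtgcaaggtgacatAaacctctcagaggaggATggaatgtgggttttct
Klra11-ps, in no replicate: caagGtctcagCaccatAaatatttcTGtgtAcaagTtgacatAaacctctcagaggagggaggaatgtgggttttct
Klra14-ps, in no replicate: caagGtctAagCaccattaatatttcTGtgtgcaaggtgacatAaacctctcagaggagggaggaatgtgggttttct

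The copies with a shared region were 90.5% (Klra6 side, 15084 bp beyond the gene body), 91.0% (Klra8) and 91.6% (Klra13-ps) identical to the Klra4 region. Those without were 90.4% (Klra11-ps) and 90.1% (Klra14-ps) identical, so identity to the Klra4 region barely separated the groups. Measured against the Klra8 region instead, these copies at Klra11-ps and Klra14-ps were 95.6% and 94.5% identical. Mean signal percentiles were 87.9 at Klra4, 35.6 on the Klra6 side, 68.4 at Klra8 and 88.8 at Klra13-ps. Reads from near-identical copies can be dropped or misplaced, so the share of 31-base words that occur once in the mm10 genome was counted in each copy. It was 81.2% at Klra4, 72.9% on the Klra6 side, 51.2% at Klra8 and 79.0% at Klra13-ps, and 57.9% and 64.5% at Klra11-ps and Klra14-ps. The Klra8 copy, with the lowest share of the 6, had a region in every replicate. How the aligner treated reads with several matches is not given in the sources used here, and the part of mapping in these absences was not tested.

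The strong intronic region of Klra4 had 15 copies in the complex, and none of them held a shared region. A region was present in 2 replicates at the Klra11-ps copy and in 1 at the Klra7 copy, and in no replicate at the other 13. Its closest copies, on the Klra6 side (90.4% identical) and in Klra13-ps (87.0%), had 81.3% and 89.7% unique words, above the 77.4% of the Klra4 region itself. The copies of the Klra2 promoter region numbered 15 as well, at 66.3 to 71.1% identity, and no region was found at any of them.

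**Figure D2:**
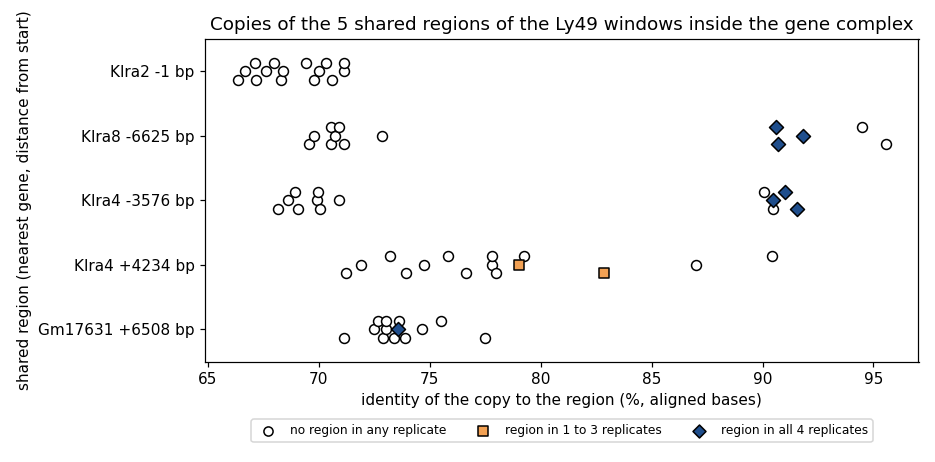
Copies, inside the NK complex, of the 5 shared regions that lie in Ly49 windows, by identity to the region in percent (1 symbol per copy; filled diamonds, copies with a region in all 4 replicates; squares, in 1 to 3; open circles, in none). Open and filled symbols share the range around 90% in the Klra4 region at -3576 bp, while the strongest region, at +4234 bp, has no diamond.

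Over the whole complex 43 shared regions were compared, of which 20 had at least 1 copy and 23 had none. These gave 95 matches of a region to a copy, of which 15 held a shared region, 4 a region in some replicates and 76 none. The same copy can match several regions, and regions that are each other's copies count in both directions. The 95 are therefore not all separate places. Outside the Ly49 genes, the intronic regions of Clec2i and Clec2g were each other's copies at 90.3% identity over the Clec2g region, and both were shared. The copy of the Clec2h promoter region, at Clec2e (81.04% identity), had no region in any replicate. Of its words 94.4% are unique, and the part of mapping in this absence was not tested. A region nearest to Klrc3, within Klrc2, was found in all 4 replicates, and its 98.0% identical copy in Klrc1 had a region in 3.

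NKG2 and CD94 genes encode the subunits of a receptor for the class I molecule Qa-1, and Klrk1 encodes the activating receptor NKG2D. All 5 members had a shared region and no promoter was open in all replicates. Klrd1, which encodes the common subunit CD94, had 4, 6, 4 and 3 regions in its window and a promoter region in replicates 1, 2 and 3. The strongest region nearest to its own start, at -2332 bp, had signals of 8.21, 7.28, 9.33 and 8.49. Klrc1, which encodes the inhibitory NKG2A, had a pair of strong distal regions. The one at -1618 bp (chr6:129679838-129681032) had signals of 16.3, 15.5, 14.9 and 14.4, and the one at -8311 bp (chr6:129686740-129687942), also in the window of Klri1, had 15.5, 15.2, 14.7 and 15.7. Both averaged a percentile of 95.5, with an SD of 1.44 and 1.47 (n = 4), and all 31-base words in them were unique. In replicate 4 the edge of the region at -1618 bp came within 1 kb of the Klrc1 start, and there was no separate promoter region in any replicate. Klrc2 and Klrc3 had a single shared region between them, which lies within Klrc2 and has 38.7% unique 31-base words. Klrk1 had 1 shared region, from 129608302, which lay nearer to the start of Klrd1 at a mean percentile of 40.5 ± 9.91 (SD, n = 4).

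Klre1, Klri1 and Klri2 encode partner chains of a receptor family expressed on NK cells. All 3 had shared regions, 9 different ones. Klre1 had 6, 8, 5 and 5 regions by replicate, with the most shared regions per 100 kb of any member (14.3). Its window holds 2 promoter regions: the one at -176 bp from an internal start had signals of 10.5, 11.6, 9.30 and 9.30, and the one at -693 bp from the first start had 8.34, 8.67, 7.16 and 7.57. Klri2 had 3 shared regions upstream. The nearest, at -1236 bp, was the weakest, with signals of 5.50, 5.23, 2.97 and 2.84 and a mean percentile of 26.9 ± 17.0 (SD, n = 4). The others had mean percentiles of 52.0 and 56.2. Klri1 had 2, both nearest to the start of Klrc1 (at -8311 and -14880 bp), and no promoter region.

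KLRG genes encode receptors that include the inhibitory cadherin receptor KLRG1, a marker of effector T and NK cells. Klrg1 had 2, 2, 2 and 3 regions by replicate, and its shared ones lay at -7400 and -9097 bp. The stronger, at -7400 bp, had signals of 9.48, 10.5, 7.95 and 9.17, while the promoter had a region in replicate 4 alone. Klrg2 had 2, 3, 4 and 3 regions. Its promoter region, in CpG-rich sequence, had signals of 8.29, 9.26, 8.27 and 7.66.

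Dectin-1 group genes encode mostly myeloid receptors. Of 5 members, 4 had a shared region and Clec12a alone had an open promoter, at a start site inside the gene. Clec12a, which encodes an inhibitory receptor for uric acid crystals, had 4, 4, 5 and 5 regions. The strongest, in an intron 1404 bp after that internal start (chr6:129351191-129351817), had signals of 13.5, 14.7, 12.1 and 12.9. The promoter region itself had 2.76, 3.80, 2.41 and 2.63, at a mean percentile of 11.1 ± 8.06 (SD, n = 4), so it ranks among the weakest shared member regions. A further strong region in the window, nearest to 4922502D21Rik at -2180 bp (chr6:129333499-129334455), had signals of 11.9, 12.7, 13.8 and 12.4. Clec9a, which encodes a receptor for exposed actin on dead cells, and Clec1a shared 1 region inside Clec1a, with signals of 10.8, 14.5, 9.06 and 9.49. Clec12b shared its region with Clec12a, and Clec1b, which encodes the platelet receptor for podoplanin, had no shared region.

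Dectin-2 and DCIR genes (Clec4 symbols) encode receptors for fungal glycans and glycolipids on myeloid cells. No promoter was open in all replicates, 6 of 10 members had no region in any replicate, and 3 had a shared one. Across the 388.023 kb of the DCIR cluster there was 1 shared region, from 123252726, which falls in the windows of both Clec4n and Clec4d and had signals of 8.93, 11.8, 5.87 and 8.35. A stretch of 340.877 kb before it, with Clec4a1, Clec4a3, Clec4a4, Clec4b1, Clec4a2, Clec4b2 and Clec4n, held no region at all. Clec4e, which encodes the receptor Mincle, had a promoter region in replicate 4 only. Clec4f, on its own far from the cluster, had 2 regions in each replicate, and Clec5a, which encodes a receptor that signals through DAP12, had 1 in replicates 2 and 3.

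The 53 shared member regions ranged from the 4.67th to the 99.97th mean percentile, with a median of 66.8, against 58.8 for all shared regions of the genome. Ranked by the deposited -log10 q instead, the member median was 58.0 and that of all shared regions 58.8, so the members stood higher by signal only. The 25 regions not found in all replicates had a median percentile of 14.1. Of the 53, 10 were promoter regions (18.9%, against 22.2% of all shared regions), 15 were intronic, 27 intergenic and 1 exonic. The 8 strongest were those named above at Klra4 (2), Klrc1 (2), Clec2i, Clec2d, Clec12a and 4922502D21Rik, and just 1 of the 8 was a promoter.

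**Figure D3:**
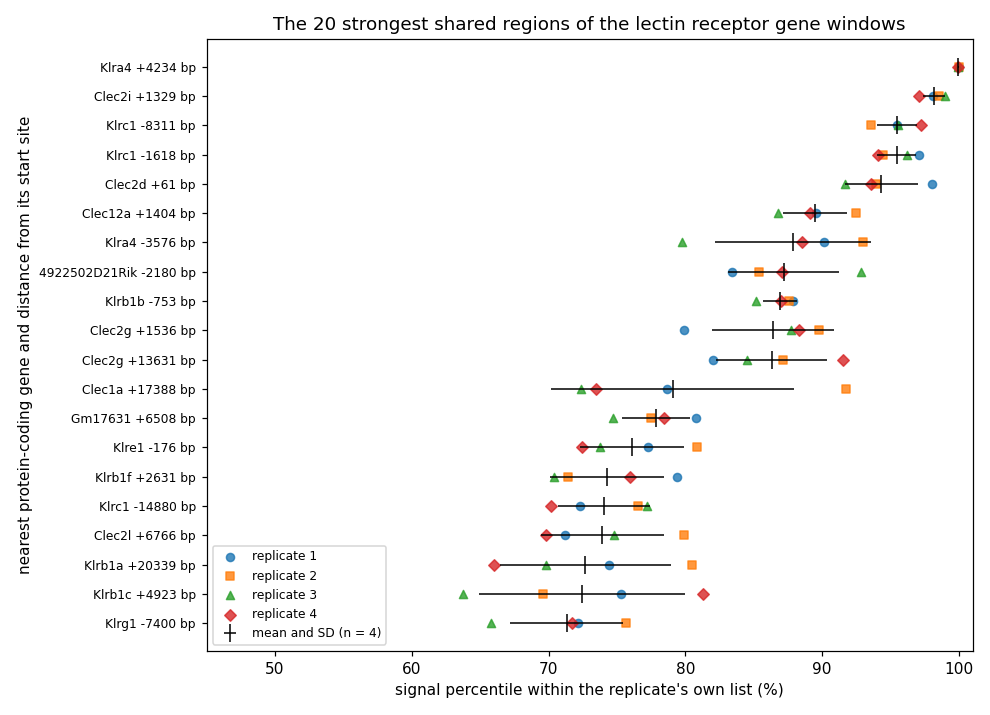
Signal percentile of the 20 strongest shared regions in the member windows, by replicate (symbols) with the mean and SD over 4 replicates (black). Labels give the nearest protein-coding gene and the signed distance from its nearest start site. The 4 symbols of the Klra4 region at +4234 bp coincide near 100, and the spread widens lower down, as at the region nearest to Clec1a.

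Sequence uniqueness was measured across the windows because these families hold near-identical copies. The median share of 31-base words found once in the genome was 76.4% in member windows (quartiles 63.7 and 87.4%) and 92.6% in other protein-coding genes of chromosome 6 (86.7 and 95.2%). The lowest window was that of Klrc2, at 37.1%, and it had a shared region. Members with no region in any replicate had a median of 72.0% (41.5 to 79.0%, n = 13), and those with a shared region 82.5% (37.1 to 96.8%, n = 31). The ranges overlap over most of their length. None of the 13 members without a region exceeded 79.0%, and Clec4a1, Klrb1, Klra5, Klra6 and Klra1 had none although at least 74.3% of their words are unique. These shares are a description, and the part of uniqueness in the counts was not tested.

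**Figure D4:**
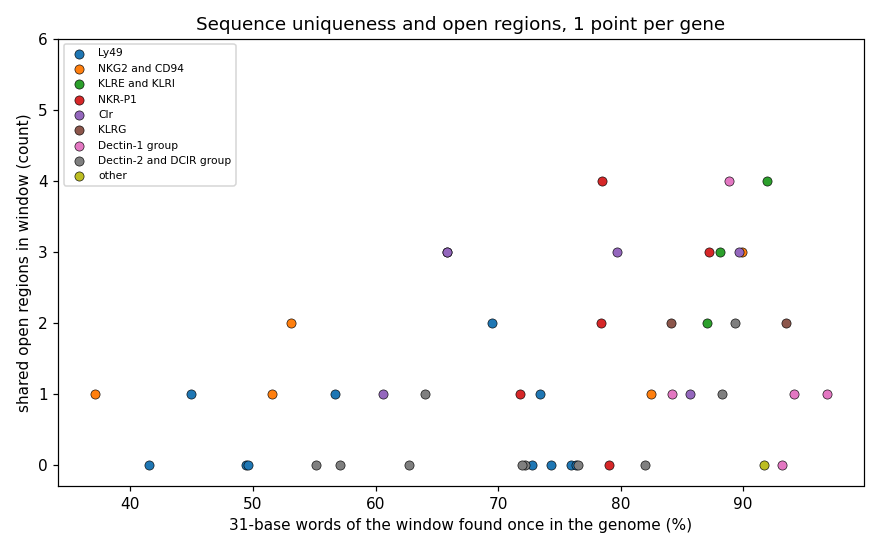
Share of 31-base words in each gene window that occur once in the genome (x axis, %) against the number of shared open regions (y axis), 1 point per gene, coloured by family. Genes with 3 or 4 shared regions lie at 65.8% or above, while genes with none spread from 41.5 to 93.1%.

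Short strings for transcription factor families were counted on both strands within 100 bp of the summits. The AP-1 string TGANTCA was in 23 of 53 shared member regions (43.4%, Wilson 95% interval 30.95 to 56.7%, counting error only), against 29.2% of all shared regions, which lies just below that interval. Within 50 bp it was in 17 (32.1%, 21.1 to 45.5%), against 21.2% of all shared regions, which lies inside that interval. RUNX (TGTGGT) was in 15 (28.3% against 21.4%), NFAT (GGAAAA) in 10 (18.9% against 15.7%), ETS (CAGGAA) in 9 (17.0% against 25.5%) and TCF (CTTTGA) in 7 (13.2% against 14.8%). The AGATAA string of the GATA family was in 3 and that of the STAT family (TTCNNNGAA) in 3, against 6.65% and 7.12% of all shared regions. An NF-kB string was in 2 (1.28% of all), and T-box (AGGTGTGA) and IRF strings were in 1 each, against 0.910% and 3.52% of all. ETS and NFAT strings can overlap at GGAA, so their counts are not independent. A match describes letters only. The regions share duplicated sequence, so they are not independent of one another either.

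Genes that work with these receptors lie elsewhere and were read in the same way. The counts of open promoters below stand beside 64.1% over all protein-coding genes. Of 11 adaptor and signalling genes, 8 promoters were open in all replicates, with 9 shared regions at Ptpn11, which encodes a phosphatase recruited by inhibitory receptors, and 8 at Ptpn6. The 3 without a promoter region in any replicate were Tyrobp, Fcer1g and Sh2d1b1. Tyrobp encodes DAP12, the signalling chain of Ly49D and Ly49H, and had 1 shared region in its window, whereas Hcst, which encodes the NKG2D adaptor DAP10, had an open promoter. Among the strongest 50000 regions, neither Tyrobp nor Hcst had a shared region, and the promoters of Hcst, Syk, Ptpn6 and Inpp5d were not open. Ptpn11 had 4 shared regions in that setting and Ptpn6 had 2. Of 11 ligand genes 8 promoters were open, among them H2-T23, which encodes Qa-1, and Raet1e, which encodes a ligand of NKG2D and had 9 shared regions. Raet1d, H60c and Cdh2 had none. At a -log10 q of at least 10 the promoters of Raet1e, H60b and Cdh4 were not open, while that of H2-T23 was. Of 19 other genes between or beside the members, 12 promoters were open in all replicates, including Cd69, an early activation lectin of T cells, with 3 shared regions.

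The cell label was read against marker genes, again beside open promoters at 64.1% of all protein-coding genes. The T-cell and Th17 markers Cd3e, Cd4, Cd28, Il17a and Ccr6 had open promoters in every replicate. Among the strongest 50000 regions the promoters of Cd4 and Il17a were not open, while those of Cd3e, Cd28 and Ccr6 were. Of 6 NK and innate lymphoid markers, 2 were open in all replicates (Eomes and Prf1), and 2, 4, 4 and 4 had a promoter region in replicates 1 to 4. Ncr1, which defines NK cells and related innate lymphoid cells, had no region shared by all replicates in its window and no promoter region in any, and Gzma had no promoter region. Of the other lists, 1 of 3 CD8 T (Cd8b1), 2 of 6 myeloid (Cd14 and Spi1) and 1 of 3 platelet (Itga2b) marker promoters were open. Lyz2, Csf1r, Itgam and Pf4 had no promoter region in any replicate. The windows of Csf1r and Itgam nevertheless held 5 and 6 shared regions. Among B-cell markers, Pax5 had an open promoter and 9 shared regions, Cd79a had no promoter region but 4 shared regions, and Ms4a1 had neither. The promoters of Eomes, Prf1, Cd8b1, Cd14, Spi1, Itga2b and Pax5 stayed open among the strongest 50000 regions. The part of other cell types in the regions at the receptor genes was not tested.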

How the data were processed

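ATAC-seq was read from 4 deposited lists of open regions, 1 per biological replicate, in mm10 per the labels. The names and settings of the aligner and peak caller were not given in the sources used here. The deposited signal value, made by the authors, is a ratio: the fold enrichment of a region over background, not scaled between replicates. Each region also has a deposited -log10 of its p-value and of its q-value, and each list stops near a -log10 q of 1.00. The deposited display score was not used. No counts are given, so precision is the spread between replicates.

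The members and lists were chosen with earlier results of these data known. Genes and start sites came from GENCODE M21. Regions of the replicates were merged at an overlap of 1 bp, and a merged region is shared when all 4 replicates have it. The exact share of 31-base words found once in mm10 was counted, a step tested on simulated data. Copies were found with BLAST 2.17.0 (at least 50% of the region covered) and short stretches aligned with Biopython 1.88; Python 3.11.15, pandas 2.3.3, numpy 2.4.6, numba 0.67.0, scipy 1.17.1 and matplotlib 3.10.9 were used. The copy search and the comparison within the second CpG class were added after values had been seen. Values in every replicate are given for members with an open promoter, the member with most shared regions in each family and the 8 strongest shared regions, with other values added after they were seen. There was 1 group, so no test between groups was made. Alternatives changed the threshold, replicates, windows, assignment and word length. Some genes of the marker lists and 1 string are not reported here.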

Additional observations from a re-analysis of the deposited data

Results flagged for a closer look

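In 45 groups of 4 replicate values checked, 2 had a replicate apart from the other 3, and chance alone gives about 1 in 20. The Dectin-2 and DCIR windows held 4 merged regions with a region of replicate 4, against 3 in each of the others, the extra one being at the Clec4e promoter. Where the other 3 counts are equal, any different count is flagged, so the rate of 1 in 20 does not hold for this group. The region from 38624327, nearest to Klrg2, had a signal percentile of 50.1 in replicate 1 and 38.8 to 39.5 in the other replicates.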

How the results depend on the processing

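Of 45 comparisons of the main counts with an alternative, 40 stayed within the limits set and 5 moved. The order of members and background turned in 2 of the alternatives below, wider windows and ranking by -log10 q. With gene bodies and no flank, shared regions per member window fell from 1.27 to 0.438 and members with a shared region from 31 to 16, beside 70.1% of all genes. With 50 kb on each side the mean was 4.15, and 41 members had a shared region beside 83.0% of all genes, in place of 31 beside 76.9%. With a -log10 q of at least 10 the members had 51.3 regions per replicate in place of 65.5. Ranked by -log10 q, the median percentile was 58.0 in place of 66.8, under the 58.8 of all shared regions. Leaving out 1 replicate at a time gave 1.27 to 1.35 regions per window, 31 members with a shared region, 9 to 10 open promoters and 64.7 to 67.0 regions per replicate. Open promoters numbered 7 at a -log10 q of at least 10 (without Clec12a and Klrb1f) and 6 among the strongest 50000 regions (also without Clec2l). They numbered 12 when any 2 replicates sufficed and 11 with merged shared regions. No paired analysis was possible because there is 1 group. Depth is unknown, so an absent region may be one that was not detected.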

Other observations

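Relatives of these genes that are not annotated as protein-coding fell outside the choice. Clec7a, which encodes Dectin-1 and is annotated as a polymorphic pseudogene, had 1 shared region in its window. The pseudogenes Clec2j, Clec2f, Klra13-ps and Klra14-ps had 1 each, and Klrb1-ps1 and Klra11-ps had none. In the NK complex as a whole, with the stretches between member windows, 82 regions were shared, or 3.08 per 100 kb, against 0.258 per 100 kb in the DCIR cluster.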
